A study of Mus musculus with 4 samples.

Results

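The 10 naive pluripotency transcription factors Nanog, Klf2, Klf4, Klf5, Esrrb, Tfcp2l1, Tbx3, Prdm14, Nr0b1 and Zfp42 were followed at the RNA level in mouse embryonic stem cells (ESCs) kept in serum or in 2i. They were chosen by name and found by Ensembl identifier among the 14533 genes of the deposited table, and all 10 were present. RNA came from serum ESCs (2 libraries) and 2i ESCs (2 libraries), adapted for over 20 days to their medium. Per the study's methods, serum medium held fetal calf serum and leukaemia inhibitory factor (LIF), and 2i medium was serum-free, with LIF, the MEK inhibitor PD0325901 and the GSK3 inhibitor CHIR99021, so both groups carried LIF. Cells were sorted by cell-cycle phase: the sample labels give late G1-phase, while the series design speaks of early G1-phase. The labels used here give no cell line or genotype for these libraries. Replicates were labelled as biological. The p-values rest on the spread between these 4 libraries, which limma draws toward that of genes at a similar level.

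Naive pluripotency is the state of the preimplantation epiblast. It is held by a network in which LIF acts through STAT3, chiefly on Klf4 and Tfcp2l1, while GSK3 inhibition stabilizes beta-catenin and relieves repression by TCF7L1 of genes such as Esrrb and Nanog. MEK inhibition removes a signal from FGF4 and ERK that drives exit from this state. The factors back one another up in part, and many bind one another's genes. In bulk RNA, a lower level in every cell and a smaller share of cells with the RNA cannot be told apart.

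None of the 10 factors passed the test between serum and 2i, and each had at least 1 serum library within 2-fold of a 2i library. Levels are normalized counts, that is reads divided by a size factor per library, and differences are serum minus 2i on the scale log2(normalized count + 1). Of the 10, 4 were higher on average in serum and 6 in 2i, with a median difference of -0.20 beside 0.0047 over the 13005 genes tested. Without 2i replicate 2, 2 of the 10 were higher in serum and the median was -0.39. It was -0.12 without 2i replicate 1 (5 of the 10 higher in serum), -0.13 without serum replicate 1 (5 of the 10) and -0.19 without serum replicate 2 (4 of the 10). With a correction for transcript length and GC content, 5 of the 10 were higher in serum and the median was -0.0098. The 4 factors whose serum values both lay below both 2i values were Nanog, Klf2, Klf4 and Prdm14. For the other 6 the groups overlapped.

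Each gene was tested with limma and adjusted over all genes tested (Benjamini-Hochberg). Calls needed an adjusted p under 0.05 together with a 2-fold change. Calls made up 0% of genes for higher in serum and 0.0154% for higher in 2i, and 0 of the 10 members were called in either direction. At an unadjusted p under 0.05 with a 2-fold change, 2.97% of genes were higher in serum and 3% in 2i, and again 0 members were. Without the fold requirement, 5.97% of genes had an unadjusted p under 0.05, and 0 members did. With no test, 9.89% of genes differed 2-fold toward serum and 15.9% toward 2i, and 1 member, Nr0b1, passed that size toward serum. With DESeq2 on whole reads, 0.561% of genes were called higher in serum and 1.37% higher in 2i, and 0 members were called. Groups failed to overlap for 20.5% of genes toward serum, with 0 members, and for 19.4% toward 2i, with 4 members. The smallest unadjusted p among the members was 0.180 with limma, 0.139 with edgeR and 0.137 with DESeq2. The limma adjusted p-values of the members ran from 0.759 to 0.983.

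The promoters in RefSeq (build GRCm38.p6, 250 bases before to 50 after a start) covered 7 of the 10 members in 9 windows; Klf5, Tbx3 and Prdm14 had no entry. The windows below belong to Nanog, which had the smallest replicate spread, to Nr0b1 and Zfp42, whose values ran most alike, and to Esrrb and Klf2. They lie at chr6:122707315-122707614 on the plus strand for Nanog, chrX:86191525-86191824 on the plus strand for Nr0b1, chr8:43306960-43307259 on the minus strand for Zfp42, chr12:86360867-86361166 on the plus strand for Esrrb and chr8:72318812-72319111 on the plus strand for Klf2. Each is written 5′ to 3′ along the gene, and capitals mark matches to the motifs spelled out after them.
Nanog: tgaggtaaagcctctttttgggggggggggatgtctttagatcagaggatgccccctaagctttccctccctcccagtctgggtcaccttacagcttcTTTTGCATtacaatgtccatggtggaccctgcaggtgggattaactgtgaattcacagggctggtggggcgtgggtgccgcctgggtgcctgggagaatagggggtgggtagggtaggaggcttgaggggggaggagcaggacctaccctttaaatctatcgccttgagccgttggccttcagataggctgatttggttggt
Nr0b1: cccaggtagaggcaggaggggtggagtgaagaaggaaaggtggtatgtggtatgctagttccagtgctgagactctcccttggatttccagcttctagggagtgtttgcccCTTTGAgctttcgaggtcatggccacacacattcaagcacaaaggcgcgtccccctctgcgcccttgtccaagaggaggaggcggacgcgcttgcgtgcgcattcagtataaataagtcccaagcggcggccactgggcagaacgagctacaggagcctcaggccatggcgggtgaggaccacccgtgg
Zfp42: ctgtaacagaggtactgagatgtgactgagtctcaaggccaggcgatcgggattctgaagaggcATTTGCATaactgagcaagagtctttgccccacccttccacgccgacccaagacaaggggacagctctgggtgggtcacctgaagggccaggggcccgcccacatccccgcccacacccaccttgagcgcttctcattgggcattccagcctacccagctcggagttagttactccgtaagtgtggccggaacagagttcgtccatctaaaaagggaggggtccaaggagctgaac
Esrrb: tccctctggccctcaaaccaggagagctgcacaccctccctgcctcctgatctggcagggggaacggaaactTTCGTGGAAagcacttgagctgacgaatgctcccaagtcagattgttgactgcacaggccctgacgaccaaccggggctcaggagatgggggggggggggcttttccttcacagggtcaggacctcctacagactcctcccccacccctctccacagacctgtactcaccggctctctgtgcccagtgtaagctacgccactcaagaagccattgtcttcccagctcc
Klf2: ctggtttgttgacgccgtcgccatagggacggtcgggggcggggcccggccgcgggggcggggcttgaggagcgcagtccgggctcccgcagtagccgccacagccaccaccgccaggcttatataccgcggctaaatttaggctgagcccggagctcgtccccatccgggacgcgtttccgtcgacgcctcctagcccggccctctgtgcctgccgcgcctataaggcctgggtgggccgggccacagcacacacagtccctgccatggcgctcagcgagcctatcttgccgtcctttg

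Motifs were searched on both strands. CTTTGA, the core read by TCF factors, stood in 16% of the 32851 RefSeq promoters and, among the members, in that of Nr0b1 alone, at -139 to -134 from the start. TTCNNNGAA, the STAT3 palindrome, stood in 8.30% of promoters and in 1 Esrrb window, at -178 to -170. ATTTGCAT, the octamer of POU factors such as OCT4, stood in 1.74% of promoters and in that of Zfp42, at -186 to -179. TTTTGCAT, which differs from it in the first base and was added after the Nanog window had been read, stood in 1.04% of promoters and at -152 to -145 of the Nanog window shown. AAGGTCA (ESRRB, 4.72% of promoters), GGGTGTGGC (KLF, 1.35%) and the comparison word TTGAAA (15.2%) matched no member window. Such a match describes letters and not binding. The windows differed in base composition, from 54.3% GC in a Nanog window, which had 4 CG pairs, to 74.3% in that of Klf4, which had 40. The Klf2 window had 69.3% GC and 32 CG pairs, against a median of 52.7% and 7 over all promoters.

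Nanog, the homeodomain factor at the centre of the network (ENSMUSG00000012396, chr6:122657507-122664651 in mm9, plus strand), had 9449 (replicate 1) and 10040 (replicate 2) normalized counts with serum against 13612 and 11893 with 2i, an order of replicates kept for every gene below. Both 2i libraries lay above both serum libraries, by a small step. The difference was -0.39 ± 0.51 (SE), with a 95% interval from -1.61 to 0.84 and an adjusted p of 0.867 (limma), so that 2i lay 1.31-fold above serum by group means. Nanog had the smallest replicate difference of the 10 in both media, 0.09 in serum and -0.19 in 2i (replicate 2 minus 1, log2). Its SE is drawn toward that of genes at a similar level and is not the spread of its own replicates. The gene to its right, Slc2a3, which encodes a glucose transporter, also separated, at 12201 and 12576 with serum against 22761 and 38037 with 2i. Its difference of -1.25 did not pass either (unadjusted p 0.0774, adjusted p 0.753, limma).

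The Kruppel-like factors Klf2, Klf4 and Klf5 bind related GC-rich motifs and can replace one another in part. Klf2 (ENSMUSG00000055148, chr8:74842932-74845555), which MEK inhibition is known to favour, had 387 and 571 normalized counts with serum against 649 and 819 with 2i. Its groups did not overlap, and its difference was -0.63 ± 0.46 (95% interval -1.74 to 0.47, adjusted p 0.763, limma). With a correction for length and GC content, of which Klf2 transcripts had the highest share of the 10 (61.6%), it was -0.10, and without serum replicate 1 it was -0.35. Klf4 (ENSMUSG00000003032, chr4:55540013-55545347), a target of LIF and STAT3, had 1127 and 1880 with serum against 3023 and 1974 with 2i. The upper serum library lay just under the lower 2i library, and the difference was -0.75 ± 0.50 (-1.94 to 0.45, adjusted p 0.759, limma). It was -0.38 without serum replicate 1, -0.44 without 2i replicate 1 and -0.48 with the same correction. Klf5 (ENSMUSG00000005148, chr14:99697910-99712624), which also acts in trophectoderm, had 825 and 1114 with serum against 1191 and 355 with 2i. Its 2i libraries enclosed both serum values, so its mean difference of 0.56 ± 0.65 (-1.01 to 2.13, adjusted p 0.847, limma) came with the opposite order in 2i replicate 1. Without 2i replicate 2 it was -0.31. Thus Klf2 and Klf4 were on one side in all 4 pairs of a serum and a 2i library, and Klf5 was not.

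Esrrb, the orphan nuclear receptor that beta-catenin and TCF7L1 are known to control (ENSMUSG00000021255, chr12:87702067-87862578), had 9461 and 6741 normalized counts with serum against 8455 and 4064 with 2i. The groups overlapped, with 2i replicate 2 lowest, and the difference was 0.45 ± 0.57 (95% interval -0.93 to 1.82, adjusted p 0.863, limma). Without 2i replicate 2 it was -0.08. Tfcp2l1, a grainyhead-family target of STAT3 (ENSMUSG00000026380, chr1:120524522-120581744), had 14696 and 11519 with serum against 21170 and 12893 with 2i. Serum replicate 1 exceeded 2i replicate 2, so the groups overlapped at a difference of -0.34 ± 0.57 (-1.73 to 1.04, adjusted p 0.899, limma), which was 0.01 without 2i replicate 1. Tbx3, a T-box factor downstream of PI3K and MEK signals (ENSMUSG00000018604, chr5:120120678-120134733), had 2138 and 2624 with serum against 3462 and 1764 with 2i. As for Klf5, the 2i libraries enclosed the serum libraries, and the difference was the smallest of the 10, at -0.06 ± 0.51 (-1.29 to 1.17, adjusted p 0.983, limma). It was 0.42 without 2i replicate 1.

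Prdm14, which represses FGF receptor signalling and DNA methyltransferase genes (ENSMUSG00000042414, chr1:13103538-13117244), had 569 and 437 normalized counts with serum against 578 and 1275 with 2i. The groups separated by 9 counts between serum replicate 1 and 2i replicate 1, and 2i replicate 2 stood well above the rest. The difference was -0.78 ± 0.54 (95% interval -2.07 to 0.51, adjusted p 0.759, limma). It was -0.21 without 2i replicate 2 (adjusted p 0.858, limma) and -1.35 without 2i replicate 1 (adjusted p 0.421, limma). Nr0b1, also known as Dax1, an X-linked nuclear receptor without a classical DNA-binding domain (ENSMUSG00000025056, chrX:83437103-83441286), had 711 and 1184 with serum against 247 and 846 with 2i. The largest difference of the 10 was here, at 1.0 ± 0.68 (-0.63 to 2.64, adjusted p 0.759, limma), yet 2i replicate 2 exceeded serum replicate 1. Leaving out 2i replicate 1 brought it to 0.12, and leaving out 2i replicate 2 to 1.89. Zfp42, which encodes the zinc-finger marker REX1 (ENSMUSG00000051176, chr8:44380422-44392363), had 8297 and 14926 with serum against 3793 and 13191 with 2i. Here too the groups overlapped, at 0.65 ± 0.74 (-1.13 to 2.43, adjusted p 0.840, limma), and without 2i replicate 1 the difference was -0.25.

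**Figure D1:**
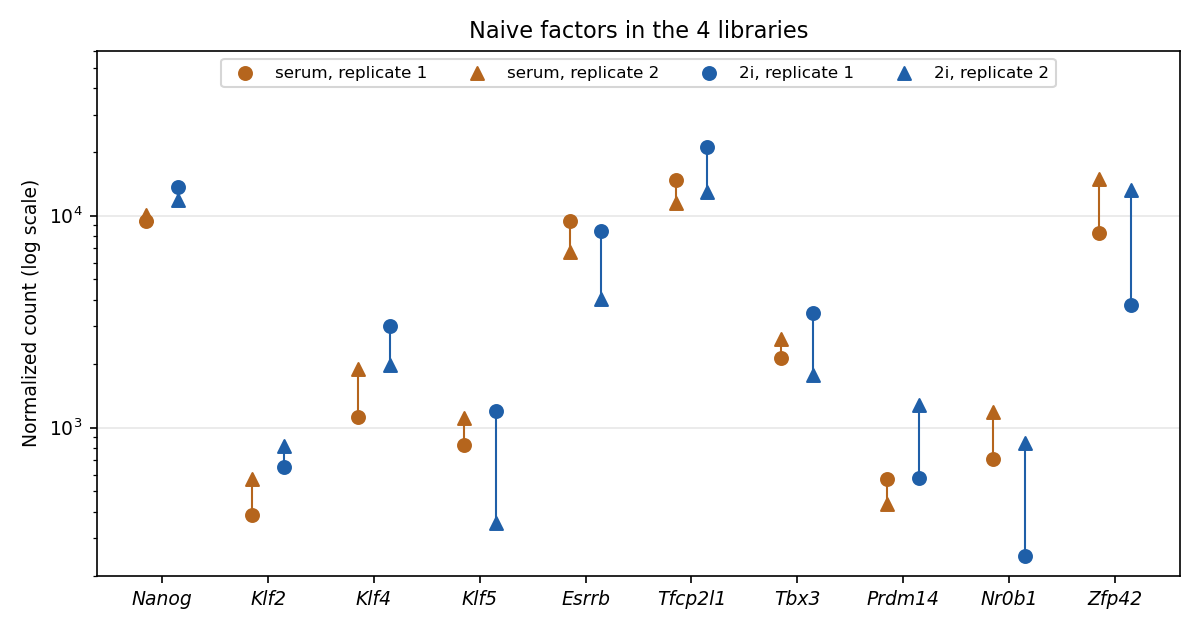
Normalized counts (log axis) of the 10 factors, with serum in brown, 2i in blue, circles for replicate 1, triangles for replicate 2 and lines joining the replicates of a group. Nanog, Klf2, Klf4 and Prdm14 are the 4 genes whose blue points both lie above both brown points.

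**Figure D2:**
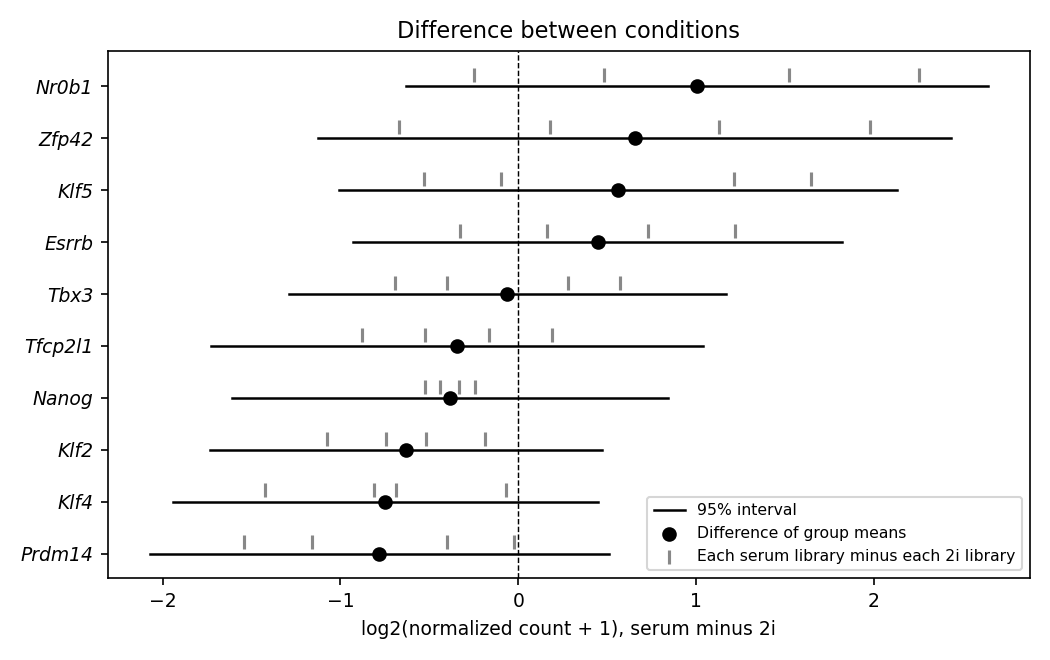
Difference between serum and 2i on the log2(normalized count + 1) scale for each factor, with its 95% interval from limma (n = 2 libraries per group) and the 4 differences between single libraries as grey ticks. All 10 intervals cross 0, from Prdm14 at -0.78 to Nr0b1 at 1.0.

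Replicates of the same medium often lay further apart than the media did. In 7 of the 10 factors the replicates of 1 medium differed by more than the group means did, beside 73.7% of all genes tested. The median size of the replicate difference was 0.46 in serum and 1.01 in 2i for the members, and 0.53 and 0.76 for all genes. In 2i, replicate 2 exceeded replicate 1 by 1.80 for Zfp42, by 1.77 for Nr0b1 and by 1.14 for Prdm14. It was the other way for Klf5 (-1.74), Esrrb (-1.06) and Tbx3 (-0.97). So between the 2 2i libraries these factors went in opposite directions, while Nanog differed by -0.19 before any correction. In serum the widest gaps were 0.85 for Zfp42, 0.74 for Klf4 and 0.73 for Nr0b1, all with replicate 2 higher.

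**Figure D3:**
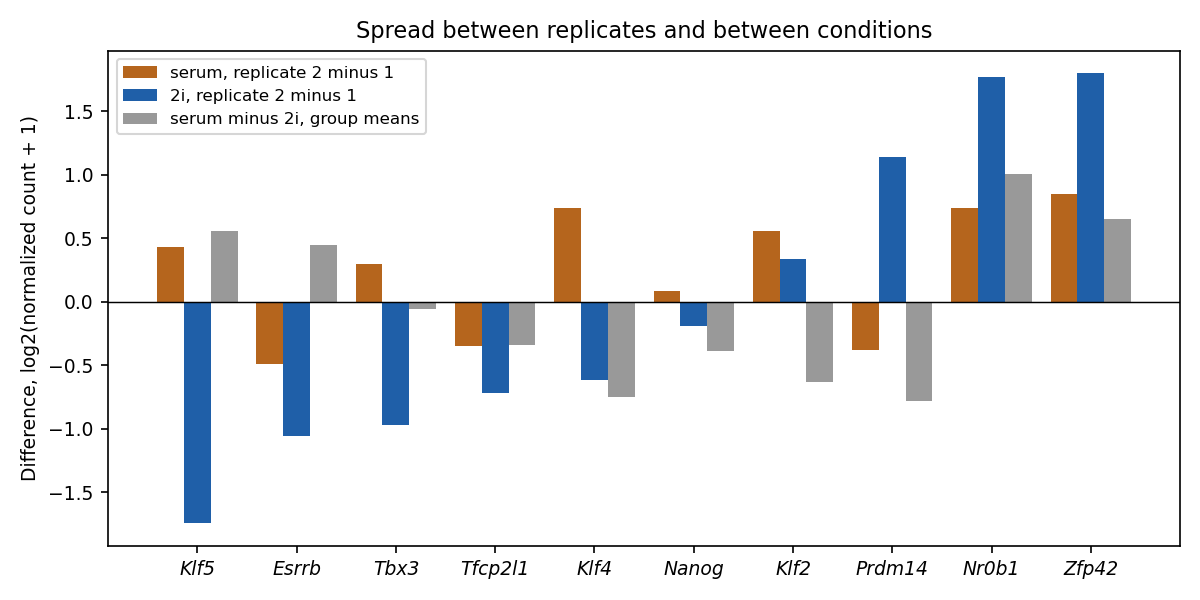
Replicate 2 minus replicate 1 in serum (brown) and in 2i (blue), and serum minus 2i by group means (grey), on the log2(normalized count + 1) scale, with factors ordered by their 2i replicate difference. The blue bars run from -1.74 for Klf5 to 1.80 for Zfp42 and exceed the grey bars for 7 of the 10 factors.

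Correcting for transcript length and GC content moved these gaps to different extents. In 2i the gap of Zfp42 went from 1.80 to 1.48, that of Nr0b1 from 1.77 to 1.5, that of Klf5 from -1.74 to -1.87 and that of Prdm14 from 1.14 to 1.02. Larger moves in proportion were those of Tbx3 from -0.97 to -0.61, Klf2 from 0.34 to 0.19 and Nanog from -0.19 to -0.44. The gap of Tfcp2l1, the longest of the 10 at 9269 exonic bases, went from -0.72 to 0.07. The libraries held 18939401 to 26570098 whole reads, of which the share in protein-coding genes was 46.9% in serum replicate 1, 76.3% in serum replicate 2, 57.8% in 2i replicate 1 and 66.3% in 2i replicate 2. The 10 highest genes of a library held 50.6% of its counts in serum replicate 1 and 17.5% in serum replicate 2. In 2i this share was 34.7% in replicate 1 and 25.5% in replicate 2. The part of these differences in the members' gaps was not tested. The lowest member value, Nr0b1 in 2i replicate 1, rested on 238 reads (exact Poisson 95% interval 208.7 to 270.2), and the highest, Tfcp2l1 in the same library, on 20392. Such an interval covers counting error only, and it takes the count, itself an estimate, as observed reads.

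Nr0b1 and Zfp42 had the most similar profiles among the members. The distance between their log2 values, each centred on its mean over the 4 libraries, was 0.36, whereas the distance of Nr0b1 to the other 8 members ran from 1.93 for Klf2 to 2.53 for Klf5. Both were lowest in 2i replicate 1 and highest in serum replicate 2. Nanog and Tfcp2l1 were next, at 0.48, followed by Nanog and Klf2 at 0.56 and Tbx3 and Tfcp2l1 at 0.57. With 4 libraries such distances are coarse: 89 tested genes lay within 0.5 of Nr0b1, 138 of Zfp42 and 880 of Nanog. The nearest tested gene was Wdr76 for Nanog (0.055), Efnb1 for Klf2 (0.075), Cyfip2 for Klf4 (0.055) and 4930511M06Rik for Klf5 (0.030). For the others it was Gli3 for Esrrb (0.043), Myo19 for Tfcp2l1 (0.058), Sec24b for Tbx3 (0.056), Hagh for Prdm14 (0.050), Heatr3 for Nr0b1 (0.066) and Hist1h4a for Zfp42 (0.079).

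Levels were compared between genes per kb of exon. Zfp42 and Nanog led, with means over the 4 libraries of 5584 and 5017 normalized counts per kb, ranks 139 and 156 of the 12926 protein-coding genes in the table. Tfcp2l1 followed at 1626 per kb, Esrrb at 1187, Klf4 at 654, Klf5 at 506, Tbx3 at 465, Nr0b1 at 413, Klf2 at 328 and Prdm14, at rank 2918, at 279. The only neighbours in this order whose ranges over libraries did not overlap were Nanog (4215 to 6071) and Tfcp2l1 (1243 to 2284). Zfp42 ranged from 2107 to 8292 per kb and stood above Nanog in 3 of the 4 libraries. Together the 10 genes made up 0.382% and 0.363% of protein-coding counts with serum against 0.432% and 0.373% with 2i.

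**Figure D4:**
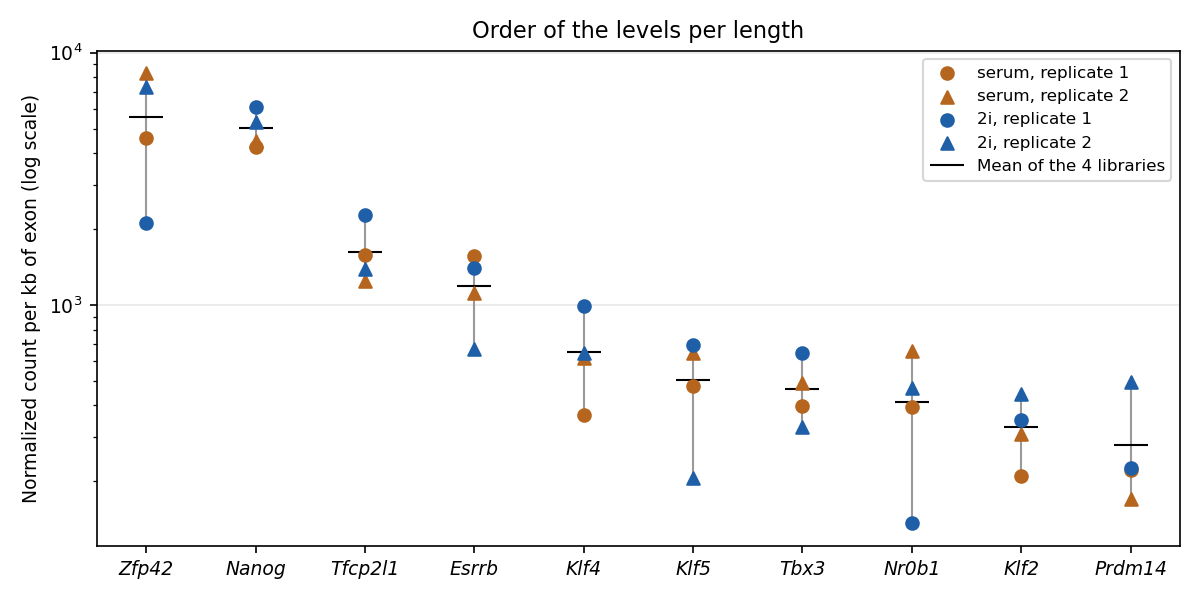
Normalized counts per kb of exon (log axis) for the 10 factors, ordered by their mean over the 4 libraries (black dash), with each library as a point and the range as a grey line. Zfp42 and Nanog lie above the rest on average, and only Nanog and Tfcp2l1 are neighbours without overlap.

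The levels of some members rest partly on sequence that occurs elsewhere. Of the 43-base words of Zfp42 transcripts, 38.7% also occurred at 1 other place in mm9, chr15:93509043-93510426, where no gene is annotated. For Nanog the share was 22.8%, and chrX:87127691-87129235, without an annotated gene, held 446 of its 2255 words. For Klf4 it was 14.8% over 7 places. The share was at most 1.25% for the other 7, and 0% for Klf2, Tbx3 and Nr0b1. Reads of such words cannot be assigned to 1 place by sequence alone, so levels of Zfp42, Nanog and Klf4 are less certain than their counts alone would give. How the authors' estimate treated such reads was not tested. Their part in the profile that Zfp42 shared with Nr0b1 was not tested either.

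Around the members, 17 of the 20 nearest genes of the table were tested, and 9 differed in the same direction as their member. None had an unadjusted p under 0.05 (limma). Over all genes, groups did not overlap for 20.5% toward serum and 19.4% toward 2i. Among the neighbours this held for 6 of the 17. Of these, 4 went the way of their member (Slc2a3, Klf12, Ncoa2 and Triml2) and 2 the opposite way. Those 2 were Rad23b beside Klf4, at 0.33, and Clasp1 beside Tfcp2l1, at 0.63. Ncoa2, a nuclear receptor coactivator gene beside Prdm14, had 337 and 477 normalized counts with serum against 732 and 570 with 2i, and did not overlap between groups, at -0.69. Triml2 beside Zfp42 had 2425 and 2196 with serum against 1516 and 1990 with 2i, and also separated, at 0.41. The latter did not share the low value of Zfp42 in 2i replicate 1 to the same extent.

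Pathway lists gave the surroundings of the members, and 0 genes of any list passed the limma test after adjustment. Some genes, such as Etv4, Zfp281 and Fgf4, stand in more than 1 list, so counts and medians of the lists are not separate results. In the LIF to STAT3 pathway, 14 of 14 genes were tested, 5 were higher in serum, and the median difference was -0.08. Groups did not overlap for 2 toward serum and 6 toward 2i, beside 20.5% and 19.4% of all genes. Stat3, the transducer upstream of Klf4 and Tfcp2l1, had 1943 and 2075 normalized counts with serum against 2112 and 2077 with 2i, a difference of -0.06. The 2 genes with an unadjusted p under 0.05 (limma), beside 5.97% of all genes, went opposite ways. Il6st, the gp130 receptor subunit, had 1590 and 1957 with serum against 751 and 757 with 2i (1.23, unadjusted p 0.0249, adjusted p 0.753, limma). Tyk2, a Janus kinase, had 475 and 356 with serum against 771 and 987 with 2i (-1.08, unadjusted p 0.0489, adjusted p 0.753, limma). Socs3, the feedback inhibitor that STAT3 induces, was spread widest in 2i, at 4773 and 1066, with 3106 and 2119 in serum. Klf4 and Tfcp2l1 were likewise higher in 2i replicate 1 than in replicate 2, as were Nanog, Klf5, Esrrb and Tbx3. In 2i, replicate 2 was the higher for 4 of the 10 members and for 6658 of the 13005 genes tested. With GC and length correction the Tfcp2l1 gap (replicate 2 minus 1) went from -0.72 to 0.07. Within the list, Pim1 had the same order in 2i (618 and 383) and Pim3 the opposite one (1476 and 1861).

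For GSK3, beta-catenin and TCF, 15 of 15 genes were tested, 10 were higher in serum, the median was 0.14, and 0 had an unadjusted p under 0.05 (limma). Tcf7l1, the repressor of Esrrb and Nanog, had 180 and 58.3 normalized counts with serum against 22.8 and 49.5 with 2i (1.58, adjusted p 0.754, limma). Axin2, the usual readout of beta-catenin activity, overlapped between groups, at 408 and 225 with serum against 163 and 463 with 2i. Of the MEK and ERK list, 23 of 24 genes were tested, 15 were higher in serum and the median was 0.40. Beside 5.97% of all genes, the 4 with an unadjusted p under 0.05 were Dusp6 (1.66), Spry4 (5.53), Spred1 (1.78) and Etv4 (2.05), all negative regulators or targets of ERK and all higher in both serum libraries. With DESeq2, Spry4 alone was called among them (adjusted p 3.12e-05). Of the other such genes in the list, Spry2 also separated toward serum, while the groups overlapped for Etv5 (0.52), Dusp4 (-0.03) and Egr1 (-2.02). Thus regulators or targets of ERK were not all higher in serum, and Egr1 was higher on average in 2i. Groups did not overlap for 8 genes of this list toward serum and 2 toward 2i, beside 20.5% and 19.4% of all genes.

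Among core and partner factors, 24 of 24 were tested, 17 were higher in serum, and the median was 0.38. Groups did not overlap for 11 toward serum and 3 toward 2i, beside 20.5% and 19.4% of all genes. The 6 with an unadjusted p under 0.05 (limma) compare with 5.97% of all genes. Pou5f1, which encodes OCT4, had 8653 and 9858 normalized counts with serum against 8452 and 20050 with 2i (-0.50), and Sox2 had 4090 and 6726 with serum against 4944 and 3523 with 2i (0.33). Neither separated by medium. DESeq2 called 3 of the list: Gbx2 and Lin28a were higher in serum (adjusted p 7.17e-05 and 0.000849), and Dppa3 was higher in 2i (adjusted p 5.61e-07). Gbx2, a STAT3 target that can sustain self-renewal, had 714 and 981 with serum against 157 and 124 with 2i. It stood on the opposite side from Klf4, which shares that upstream factor.

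The list of exit and formative factors had 17 of 20 genes tested, 10 higher in serum and a median of 0.52. It mixes factors of the later state with other regulators of exit, such as the repressor Tcf7l1. Groups did not overlap for 8 toward serum and 0 toward 2i, beside 20.5% and 19.4% of all genes. An unadjusted p under 0.05 (limma) was reached by 4, beside 5.97% of all genes. The de novo methyltransferases Dnmt3a (1226 and 1858 in serum, 800 and 285 in 2i) and Dnmt3b (740 and 1957, 244 and 483) were among the 4 with an unadjusted p under 0.05, together with Zfp281 and Etv4 (limma). Otx2, the early driver of exit, overlapped at 117 and 195 with serum against 119 and 384 with 2i. Prdm14, a repressor of the methyltransferase genes, separated in the other direction from Dnmt3a and Dnmt3b. Of the Prdm14 partners, 6 of 7 were tested and all 6 were higher on average in serum (median 0.86), but 2 separated by medium, Ezh2 (1.21) and Tet2 (0.79). Without serum replicate 2 that median was 0.39.

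**Figure D5:**
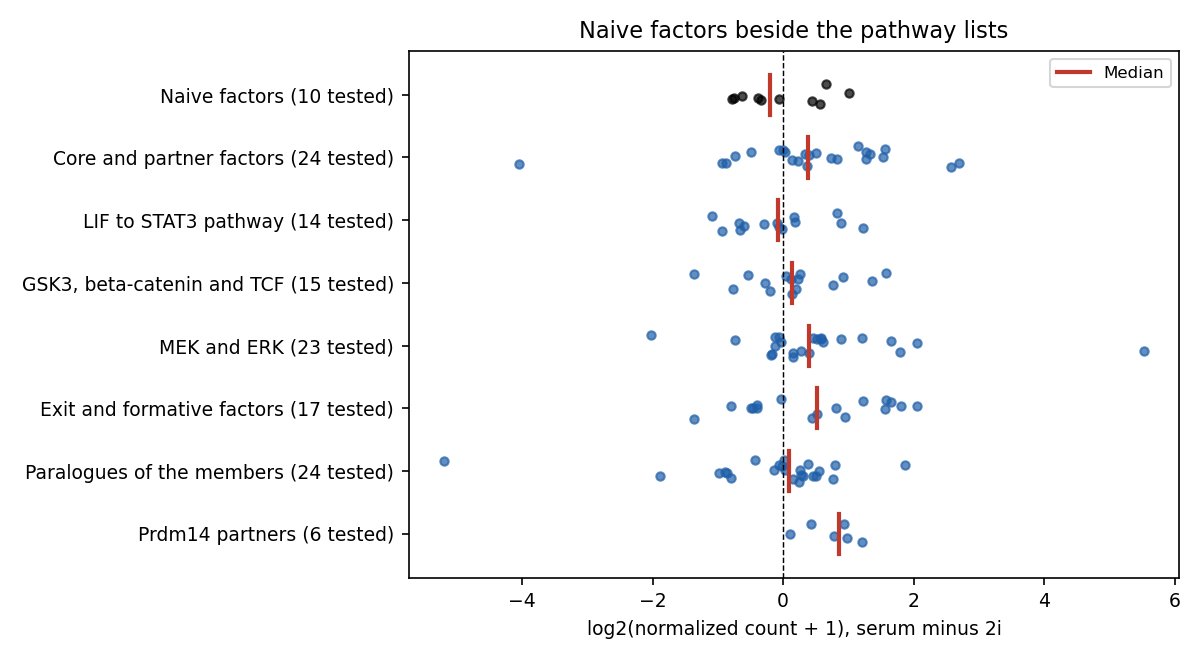
Difference between serum and 2i on the log2(normalized count + 1) scale for the tested genes of each list (points, spread vertically for sight only) and its median (red line). The naive factors (black) span -0.78 to 1.0, a narrower range than the MEK and ERK list, in which Spry4 reaches 5.53.

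Of the 32 paralogues of the members, 24 were tested, 14 were higher in serum, the median was 0.09 and 0 had an unadjusted p under 0.05 (limma). Groups did not overlap for 3 toward serum and 6 toward 2i, beside 20.5% and 19.4% of all genes. Esrra, the paralogue of Esrrb, had 297 and 323 normalized counts with serum against 429 and 735 with 2i (-0.86), and Tfcp2, that of Tfcp2l1, had 293 and 163 with serum against 348 and 415 with 2i (-0.79). Prdm9, a meiotic paralogue of Prdm14, was listed at 51712 in 2i replicate 1 and at 7.78 to 92.0 in the other 3 libraries.

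The cell label was checked against markers, summed over those in the table. Of the ESC markers, 9 of 10 were tested, and their summed level ran from 49578 to 80648 normalized counts in serum and from 47492 to 65920 in 2i. That list includes the members Nanog and Zfp42, so its sum holds values of the members themselves. Of the primitive endoderm markers, 7 of 11 were in the table and 4 tested, and the 7 had a summed level of 1756 to 4001 in serum and 1826 to 2343 in 2i. Its defining factors were low, with Gata4 at 13.0 and 42.8 with serum against 152 and 169 with 2i, and Gata6 at 5.0 and 16.5 with serum against 87.2 and 27.2 with 2i. Trophectoderm markers (5 of 7 tested) summed to 496 to 1152 in serum and 518 to 4471 in 2i, with the top value in 2i replicate 1, where Elf5 was at 2215 against 80.7 to 118 elsewhere. Tfap2c (1743 against 257 to 648 elsewhere), Krt7 and Eomes were also highest in 2i replicate 1, and Gata3 was not. Of the members, Nanog, Klf4, Klf5, Tfcp2l1 and Tbx3 were highest in that library too. The share of all genes that were highest there was not counted. Fibroblast or feeder markers (2 of 9 tested) summed to 193 to 230 in serum and 58.2 to 199 in 2i, and early mesoderm and neural markers (3 of 6 tested) to 443 to 642 in serum and 371 to 406 in 2i. None of the tested markers was at 0 in any library. The part of these markers in the members' values was not tested.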

How the data were processed

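RNA from 2 serum and 2 2i libraries was analysed. Per the study's methods, the authors removed ribosomal RNA, primed at random positions, sequenced single ends of 43 bases, aligned the reads to mm9 with Bowtie and estimated gene counts with MMSeq. What they deposited is a signal: gene counts that the authors divided by a size factor per library. In each library, 100% of the values were whole multiples of a single step (tolerance 0.01 reads), so whole counts were recovered, here called whole reads. As these counts were estimated with MMSeq, they need not equal the reads observed at a gene. Positions and exon lengths came from GENCODE vM1 on mm9 and promoters from RefSeq. Tfcp2l1 was found under its older symbol Tcfcp2l1.

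Genes whose mean reached 50 normalized counts in serum or in 2i were tested with limma 3.58.1 (R 4.3.3) on log2(normalized count + 1), which understates the change of low genes, with a variance trend and Benjamini-Hochberg adjustment over 13005 genes. The study used DESeq2. Here edgeR 4.0.16 on whole reads called 0 genes in either direction, and DESeq2 1.42.0 called 73 higher in serum and 178 higher in 2i. With 2 libraries against 2, an exact permutation test cannot give a two-sided p below 0.333, so none was used. The correction for GC content and length used mgcv 1.9.3.

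The members and lists were chosen with earlier results of these data known. By rule, every member and any listed gene could be named, as could the tested genes with the smallest distance of centred log2 values to a member and the nearest gene of the table on each side. Alternatives were pseudocounts of 0.5 and 5, no filter or a mean of at least 200, upper quartile, TMM and quantile scaling, protein-coding genes alone, a replicate block, GC and length correction, limma without trend, unadjusted p-values, leaving out each library, edgeR and DESeq2.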

Additional observations from a re-analysis of the deposited data

How the results depend on the processing

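Each member was refitted under 18 alternatives. Of the 180 values, 172 kept their direction, 0 passed the threshold, 4 had an unadjusted p under 0.05, and the smallest adjusted p was 0.295 (limma, Nr0b1, replicate block with GC and length correction). Direction held for 5 members (Nanog, Klf2, Klf4, Prdm14 and Nr0b1) and turned at least once for the other 5. The filters, the replicate block and limma without trend left each estimate as in the main fit, so they could not turn a direction. For Nanog, Klf2, Klf4 and Prdm14, whose groups did not overlap, leaving out a library could not turn it either. Size did not hold: leaving out each library gave -0.48 to -0.29 for Nanog, -0.91 to -0.35 for Klf2, -1.12 to -0.38 for Klf4, -1.35 to -0.21 for Prdm14 and 0.12 to 1.89 for Nr0b1, and GC and length correction gave -0.099 for Klf2. Without each library in turn the values were -0.31 to 1.43 for Klf5 and -0.082 to 0.97 for Esrrb, both lowest without 2i replicate 2. They were -0.70 to 0.013 for Tfcp2l1 and -0.55 to 0.42 for Tbx3, both highest without 2i replicate 1, and -0.25 to 1.55 for Zfp42, lowest without 2i replicate 1. Tbx3 was also at 0.087 without serum replicate 1 and at 0.080 with GC and length correction, with or without the replicate block. The cause was not tested. With 1 library left in a group, that library was assumed to vary like the others.

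The members' median was -0.0098 with GC and length correction, with or without the replicate block, and ran from -0.39 to -0.12 when each library was left out. With GC and length correction the medians were 0.59 for core and partner factors and 0.67 for exit and formative factors, with or without the block, beside a shift of the median of all genes to 0.10. Under upper quartile scaling (all genes at -0.12) the LIF to STAT3 median was -0.20 and the exit and formative median 0.40. Under quantile normalization the latter was 0.43 and the GSK3, beta-catenin and TCF median 0.36. With edgeR and DESeq2 the exit and formative median was 0.40 and 0.41. Leaving out each library gave medians from 0.21 to 0.62 for core and partner factors, -0.22 to -0.091 for LIF to STAT3, 0.05 to 0.16 for GSK3, beta-catenin and TCF, 0.14 to 0.49 for MEK and ERK, 0.52 to 0.77 for exit and formative factors, -0.20 to 0.35 for paralogues and 0.39 to 1.21 for Prdm14 partners.

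Genes called over all genes numbered 0 toward serum and 2 toward 2i. With the replicate block they were 44 and 159, with the block and GC and length correction 1 toward serum, with DESeq2 73 and 178, and at an unadjusted p 386 and 390. Toward 2i they were 4 at a mean of at least 200, 1 without trend, and 0 for protein-coding genes, for GC and length correction, for edgeR and without any 1 library. With the replicate block 0 members were called. No label says that the numbers pair the libraries, and the replicate differences of the 2 media correlated at 0.480 across genes, which are not independent replicates. The narrowest interval among the members, that of Klf2, ran from -1.74 to 0.47, so that a 2-fold difference was not detectable at this spread.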
